A study of Homo sapiens with 18 samples.

Results

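The data are 12 of the 18 RNA-seq libraries of an experiment in IMR90 cells, an established line of human lung fibroblasts, chosen by their labels because they form a 2 by 2 design of acetate and mtDNA. All 12 came from cells made senescent by irradiation and then cleared of mitochondria with CCCP, a mitochondrial uncoupler that triggers mitophagy in cells engineered for it. Sen(IR)+CCCP received nothing further and is called CCCP here. Sen(IR)+CCCP+Acetate received sodium acetate after the clearance, Sen(IR)+CCCP+mtDNA was transfected late with mitochondrial DNA, and Sen(IR)+CCCP+mtDNA+Acetate, the combination, received both. Each group has 3 replicates, and the study describes its cell culture replicates as independent experiments. Whether the groups without mtDNA received transfection reagent is not stated in the sources used here, so DNA and reagent cannot be told apart. Of 57500 genes in the table, 16342 passed a filter on low counts and were tested.

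Cytosolic DNA is sensed by cGAS, which signals through STING to induce type I interferon and NF-κB targets, and interferon then acts through its receptors on interferon-stimulated genes. Acetate is converted to acetyl-CoA, the acetyl donor for histone acetylation, which accompanies active promoters and enhancers. ATF4 is a transcription factor whose translation rises in the integrated stress response and whose targets supply amino acids, charge tRNAs and feed back on the stress signal.

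The question of the 2 by 2 is whether mtDNA changed a gene by the same factor with and without acetate. The interaction is the log2 mtDNA change in cells given acetate minus the log2 mtDNA change in cells not given it. It is 0 where the combination lies at the product expectation, the acetate level times the mtDNA level divided by the CCCP level. Levels are CPM, a gene's reads relative to library size after TMM, a normalization that discounts a few very abundant genes, and they are compared between groups for 1 gene, not between genes. In bulk RNA a lower level per cell and fewer cells with that RNA cannot be told apart.

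Total counts on genes ran from 24624886 to 46045962 per library. The 11 fibroblast markers (collagens and other mesenchymal genes) were all detected, with a summed level of 5436 to 7572 CPM. The 5 blood and 4 muscle markers were each under 1 CPM on average, as were 3 of 4 epithelial and 3 of 4 endothelial markers. The exceptions were KRT19 and TEK, and the endothelial sum, 176 to 308 CPM, averaged 274 with CCCP, 188 with acetate, 287 with mtDNA and 200.5 with the combination. Combination replicate 2 stood apart from the other libraries in its mtDNA genes and in its distance from its partners. The 13 protein-coding mtDNA genes took 0.237% of its counts, against 0.0640% and 0.0624% in combination replicates 1 and 3 and 0.0461% to 0.0534% with mtDNA alone. They took 0.114% to 0.136% with CCCP and 0.123% to 0.138% with acetate. The chi-square of counts per degree of freedom was 28.2 and 24.7 between combination replicate 2 and its partners, and 2.98 to 7.39 between all other replicate pairs, so no library is a copy of another. Counts of genes and the interactions of the genes described in full are therefore given with and without combination replicate 2.

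With all 12 libraries, 88 genes had a lower and 17 a higher level with the combination than the product expectation at an adjusted p under 0.05 (edgeR). DESeq2 called 190 lower and 165 higher on the same libraries, starting from 35293 genes without the filter on low counts. The 105 genes called by edgeR are 0.643% of those tested, 0.538% lower and 0.104% higher. Without combination replicate 2, 16799 genes passed the filter, 428 were lower (2.55%) and 380 higher (2.26%). All 105 genes of the edgeR set were among these 808 (4.81%), each with its sign. For comparison, mtDNA raised 1911 and lowered 1428 genes without acetate (20.4% of those tested, 11.7% higher and 8.74% lower) and raised 1200 and lowered 1131 with acetate (14.3%, 7.34% higher and 6.92% lower). The latter split was 1623 higher and 976 lower with DESeq2's size factors, while the median log2 change of all genes stayed within 0.1 of 0. Acetate raised 4830 and lowered 5011 genes without mtDNA (60.2%, 29.6% higher and 30.7% lower) and raised 4620 and lowered 5277 with it (60.6%, 28.3% higher and 32.3% lower). The median interaction of all genes was -0.02 with 12 libraries and 0.00 without combination replicate 2.

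The genes with a lower interaction were mostly genes that each treatment raised. Of the 88, mtDNA raised 73 in fitted value both without and with acetate, but less with it, and 14 went up without acetate and down with it. Both single treatments passed the test as higher for 71 of the 88. Over all genes mtDNA alone raised 11.7% and acetate alone 29.6%, and the share raised by both is not given. The mtDNA change with acetate passed, in either direction, for 60 of the 88 (14.3% of all genes). These classes rest on the same libraries and changes as the interaction, so their counts describe the called genes and test nothing. The interactions ran from -3.83 to -0.23 with a median of -0.51. Of the 17 genes with a higher interaction, 12 had a fitted value that went down with mtDNA without acetate and up with it. The mtDNA change with acetate passed the test, in either direction, for only 7 of the 17 (14.3% of all genes). The interactions of the 17 ran from 0.26 to 1.28 with a median of 0.36.

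**Figure D1:**
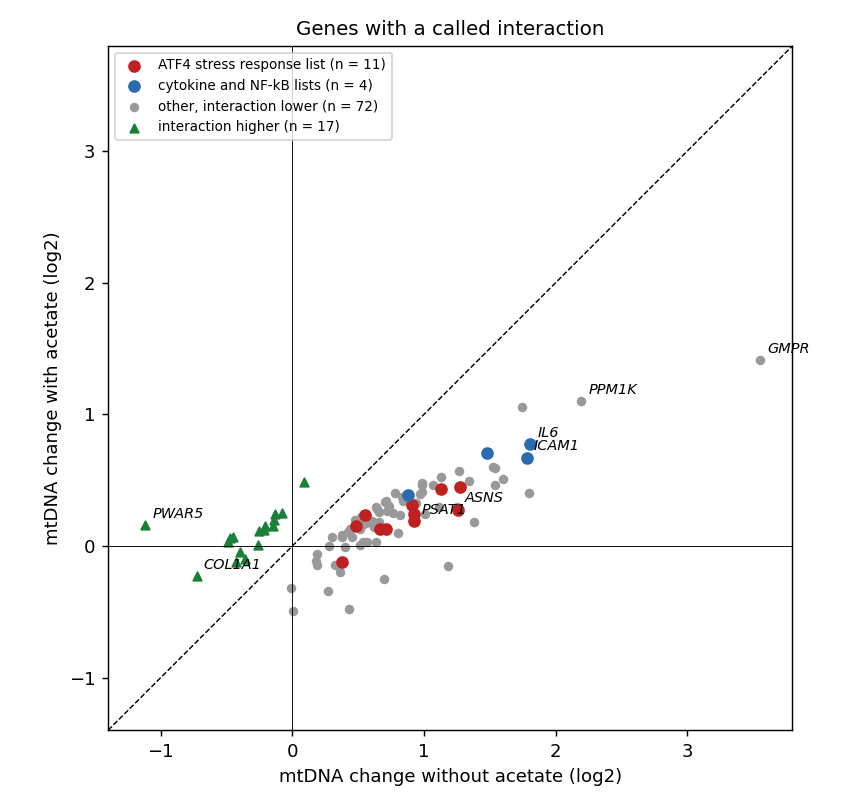
The log2 mtDNA change in cells given acetate (vertical axis) is plotted against that in cells not given it (horizontal axis) for 104 of the 105 genes with a called interaction (MYH7B, at low counts, is left out), and the dashed line marks equal changes. The 11 genes of the ATF4 list and the 4 of the cytokine and NF-κB lists lie below the line, and the 17 genes with a higher interaction lie above it.

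The number of called genes depended on single libraries. It was 27 without acetate replicate 1, 62 without acetate replicate 2, 34 without acetate replicate 3, and 56, 46 and 47 without CCCP replicates 1, 2 and 3. It was 50 and 61 without mtDNA replicates 1 and 3 and 54 without combination replicate 3. It was 93 without mtDNA replicate 2 and 90 without combination replicate 1. None of the 105 genes changed sign in any of the 12 fits with 1 library left out. They were selected on the same libraries, so the kept signs test nothing. Of the 105 genes, 22 passed the threshold in all 12 fits. Those 22 were ASNS, PSAT1, PSPH, MTHFD2, PCK2, SLC7A5, TRIB3, CHAC1, DDIT4, SESN2, ADM2, NAMPT, TRIM25, BIRC3, MMP1, CDKN2B, MSC, TGIF1, UNC5B, AFAP1L1, CA13 and, as the only one with a higher interaction, VCAN. The first 5 are enzymes of amino acid, serine, one-carbon or phosphoenolpyruvate metabolism, and SLC7A5 is a carrier of large neutral amino acids.

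Of the 18 gene lists, the ATF4 stress response held the largest share of called genes with 12 libraries. The lists and their members were chosen with earlier results of these data known, so this rank and the shares below test nothing. Of its 16 members, all tested, 11 had a lower interaction and 0 a higher one, against 0.538% of all genes lower. The list's median interaction was -0.51, against -0.02 over all genes. Of its 16 values 15 were negative, against 8770 of 16342 over all genes. Without combination replicate 2, 12 of 16 were lower (2.55% of all genes) and the median was -0.4. mtDNA alone raised 13 of the 16 members (11.7% of all genes) and acetate alone raised 11 (29.6%). The median over the list of the combination level divided by the higher of the single-treatment levels was 1.10.

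ASNS, asparagine synthetase, was at 114, 113 and 106 CPM in the CCCP libraries, 288, 298 and 301 with acetate, 273, 253 and 270.0 with mtDNA and 368, 340.3 and 367 with the combination. The 3 combination libraries lay above every other library and close to one another. They lay below both 708 CPM, the product expectation, and 450.1 CPM, the sum expectation (acetate plus mtDNA minus CCCP). The interaction of ASNS was -0.98 (SE 0.06, edgeR adjusted p = 8.34e-07), and -0.92 (SE 0.06, edgeR adjusted p = 3.89e-10) without combination replicate 2. mtDNA changed ASNS by 1.26 without acetate and by 0.28 with it, both in log2.

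ASNS lies on chromosome 7 from 97851677 to 97872542 (GRCh38, minus strand). Its promoter window is shown because ATF4 is known to act at an element of this gene. The core searched was TGATGNAA on both strands, chosen after the values were seen. The window runs from 250 bases before to 50 after the start in RefSeq (GRCh38.p14, chr7:97872359-97872658, minus strand), and capitals mark the match, which begins 68 bases before the start. The start is RefSeq's, so a window can lie inside the span that GENCODE gives the gene.
ASNS: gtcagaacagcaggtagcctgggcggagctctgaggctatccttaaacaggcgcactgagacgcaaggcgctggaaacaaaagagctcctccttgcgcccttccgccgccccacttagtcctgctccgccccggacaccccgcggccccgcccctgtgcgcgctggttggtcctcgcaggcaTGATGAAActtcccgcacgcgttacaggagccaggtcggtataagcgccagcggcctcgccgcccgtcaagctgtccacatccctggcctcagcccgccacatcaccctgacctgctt
Of the 16 genes 14 matched a RefSeq window by symbol, and 4 of these held the core in at least 1 window, against 4.46% of all 27305 genes with a window and 3.62% of all 35116 windows.

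Other enzymes of the list make serine and one-carbon units. Levels of PSAT1, an aminotransferase of serine synthesis, were 239, 247 and 225 CPM with CCCP, 658, 648 and 650.4 with acetate, 459.8, 443 and 448 with mtDNA and 764, 707 and 762 with the combination. The combination libraries again lay above all others and below the sum expectation of 866 CPM. The interaction of PSAT1 was -0.74 (SE 0.06, edgeR adjusted p = 1.11e-05), and -0.68 without combination replicate 2. For PHGDH, the first enzyme of that pathway, the levels were 48, 49.4 and 45.8 CPM with CCCP alone, 57.9, 59.4 and 59.5 with acetate, 75.3, 79.9 and 71.9 with mtDNA and 70.8, 57.4 and 65.2 with the combination. Here the combination overlapped acetate alone and lay below every mtDNA library, with an interaction of -0.53 (SE 0.09, edgeR adjusted p = 0.0118), or -0.43 without combination replicate 2. SHMT2, the mitochondrial serine hydroxymethyltransferase, had an interaction of -0.33 (SE 0.05, edgeR adjusted p = 0.00852).

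The list also holds genes of stress feedback. TRIB3, a pseudokinase that restrains ATF4, measured 35.4, 35.5 and 31.8 CPM with CCCP alone, 76.8, 77.1 and 73.8 with acetate, 83.5, 84.1 and 81.3 with mtDNA and 105, 109 and 97.4 with the combination. Its interaction was -0.82 (SE 0.07, edgeR adjusted p = 3.12e-05) and the combination libraries lay above all others. DDIT4, an inhibitor of mTORC1, was at 39.3, 38.2 and 38.7 CPM in the CCCP libraries, 83, 79.5 and 78.5 with acetate, 70.4, 79.8 and 70.6 with mtDNA and 92.9, 98.5 and 93.4 with the combination. The groups did not overlap except for acetate and mtDNA alone, and the interaction was -0.69 (SE 0.07, edgeR adjusted p = 0.0002). The interaction was -0.70 for CHAC1, which degrades glutathione, -0.60 for SESN2, a leucine sensor, and -0.59 for CEBPB, a partner of ATF4 on DNA. VLDLR (-0.50) and the amino acid carrier subunit SLC3A2 (-0.32) were also called lower, and each lost the call in most fits with 1 library left out. Leaving out combination replicate 2 gave -0.83 for TRIB3, -0.69 for DDIT4, -0.69 for CHAC1, -0.62 for SESN2 and -0.63 for CEBPB.

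The 5 members not called were ATF4, ATF3, ATF5, DDIT3 and SLC7A11. Levels of ATF4 were 629, 648 and 656 CPM with CCCP, 638, 621 and 641 with acetate, 625, 635 and 614 with mtDNA and 602, 494 and 587 with the combination. The other 3 groups overlapped one another, all combination libraries lay below them with replicate 2 lowest, and the interaction of ATF4 mRNA was -0.13 (SE 0.08, edgeR adjusted p = 0.509), or -0.02 without combination replicate 2. DDIT3, the stress factor CHOP, had an interaction of -0.31 (SE 0.08, edgeR adjusted p = 0.0797), and -0.35 (SE 0.07, edgeR adjusted p = 0.0017) without combination replicate 2. SLC7A11, the cystine carrier, was at 0.11 (SE 0.09, edgeR adjusted p = 0.673). Of the 11 called members 6 (ASNS, PSAT1, TRIB3, CHAC1, DDIT4 and SESN2) passed in all 12 fits with 1 library left out. The count of called members was 6 without acetate replicate 1 and 8 to 12 without any other library.

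**Figure D2:**
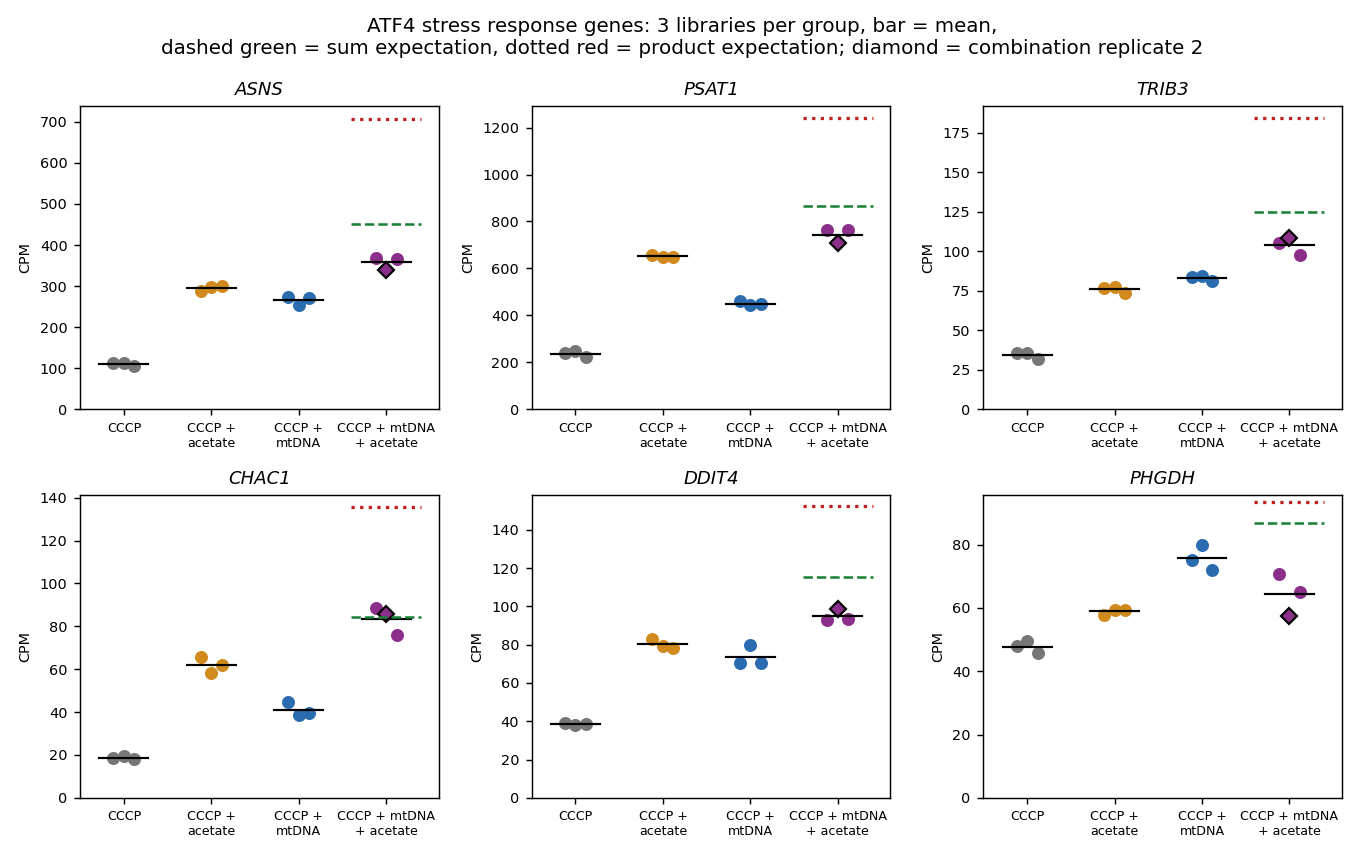
The CPM of 6 genes of the ATF4 list are plotted for the 3 libraries of each group, with bars for group means, dashed green lines for the sum expectation and dotted red lines for the product expectation of the combination. The diamond is combination replicate 2. The mean of the combination is below the product expectation in all 6 panels.

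Among 14 tested inflammatory cytokines and neutrophil chemokines, 1 (IL6) had a lower interaction and 0 a higher one. Among 18 NF-κB subunits, feedback genes and adhesion targets 3 were lower (ICAM1, BIRC3 and PTGS2) and 0 higher, against 0.538% of all genes lower. The list medians were -0.34 and -0.30. Acetate alone raised 12 of the 14 and 17 of the 18 (29.6% of all genes), and mtDNA alone 7 of the 14 and 13 of the 18 (11.7%). When combination replicate 2 was left out, 2 cytokines (IL6 and IL1A) and 8 NF-κB genes were lower (2.55% of all genes). The NF-κB count was 1 in 8 of the other fits with 1 library left out.

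For IL6, interleukin 6, the levels were 19.7, 19 and 18.9 CPM with CCCP alone, 152, 121 and 117 with acetate, 75.5, 56.7 and 69.8 with mtDNA and 206, 269 and 194 with the combination. The groups did not overlap, and the combination was highest. The combination mean lay below the product expectation of 456 CPM, so the interaction of IL6 was -1.03 (SE 0.18, edgeR adjusted p = 0.012), and -1.16 (SE 0.13, edgeR adjusted p = 2.75e-06) without combination replicate 2. Leaving out CCCP replicate 2 ended the call. All 3 combination libraries lay above the sum expectation of 178 CPM, by a mean of 44.5 ± 26.4 CPM (SE), a difference described without a test. The excess was 21.5 ± 13.9 CPM (SE) without combination replicate 2. The sign of departure for IL6 therefore depended on whether levels were expected to multiply or to add.

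IL6 lies on chromosome 7 from 22725884 to 22732002 (GRCh38, plus strand). Its RefSeq window (GRCh38.p14, chr7:22726950-22727249, plus strand) is shown because it holds a κB site, the element bound by NF-κB, and capitals mark that match, which begins 73 bases before the start.
IL6: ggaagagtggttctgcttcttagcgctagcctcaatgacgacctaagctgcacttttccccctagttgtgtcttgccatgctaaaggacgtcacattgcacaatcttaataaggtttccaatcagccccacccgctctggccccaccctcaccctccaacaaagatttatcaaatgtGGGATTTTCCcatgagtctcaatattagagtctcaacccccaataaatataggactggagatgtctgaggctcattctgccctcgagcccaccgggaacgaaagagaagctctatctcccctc
Of 16 cytokine genes with a window 7 held a κB site on either strand, against 7.09% of all genes with a window and 5.91% of all windows.

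ICAM1, an adhesion molecule for leukocytes, measured 8.25, 8.58 and 9.59 CPM with CCCP alone, 211, 163 and 164 with acetate, 34.6, 23.3 and 32.2 with mtDNA and 252, 350.2 and 256 with the combination. Combination replicate 2 was the highest library, and the groups did not overlap. The interaction of ICAM1 was -1.11 (SE 0.21, edgeR adjusted p = 0.0287), passed in 4 of the 12 fits with 1 library left out, and was -1.25 without combination replicate 2. All 3 combination libraries exceeded the sum expectation of 201 CPM, by 85.3 ± 35.9 CPM (SE), or by 53.2 ± 16.2 CPM (SE) without combination replicate 2. BIRC3, an inhibitor of apoptosis induced by NF-κB, was at 17.1, 17.8 and 14.5 CPM in the CCCP libraries, 83.7, 77.2 and 69.1 with acetate, 44, 47.5 and 46.9 with mtDNA and 128, 122 and 125 with the combination. The 3 combination libraries lay close to one another and above all others. The interaction of BIRC3 was -0.77 (SE 0.10, edgeR adjusted p = 0.00226), -0.73 without combination replicate 2, and passed in all 12 such fits, while the combination exceeded the sum expectation of 106 CPM by 18.7 ± 4.74 CPM (SE).

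On the scale of CPM, 80 of the 88 genes with a lower interaction also lay below the sum expectation, 72 of them by more than 2 standard errors. The other 8 (ICAM1, KCNT2, IL6, FBXO32, BIRC3, PTGS2, VEGFC and CLDN1) lay above it, ICAM1 and BIRC3 by more than 2 standard errors. When combination replicate 2 was left out, 5 of these 8 lay above it, and KCNT2 (-0.471 CPM), FBXO32 and VEGFC lay below. In the ATF4 list 14 of 16 members were below the sum expectation. In the cytokine list 9 of 14 and in the NF-κB list 10 of 18 were above it. The same counts over all genes tested are not given, so neither these list counts nor those of the 88 genes can be set against a background. All 17 genes with a higher interaction lay above the sum expectation by more than 2 standard errors. They were called for lying above the product expectation in the same libraries. Both expectations can be close (sum 426 and product 427 CPM for ADAMTS1), so this count tests nothing.

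**Figure D3:**
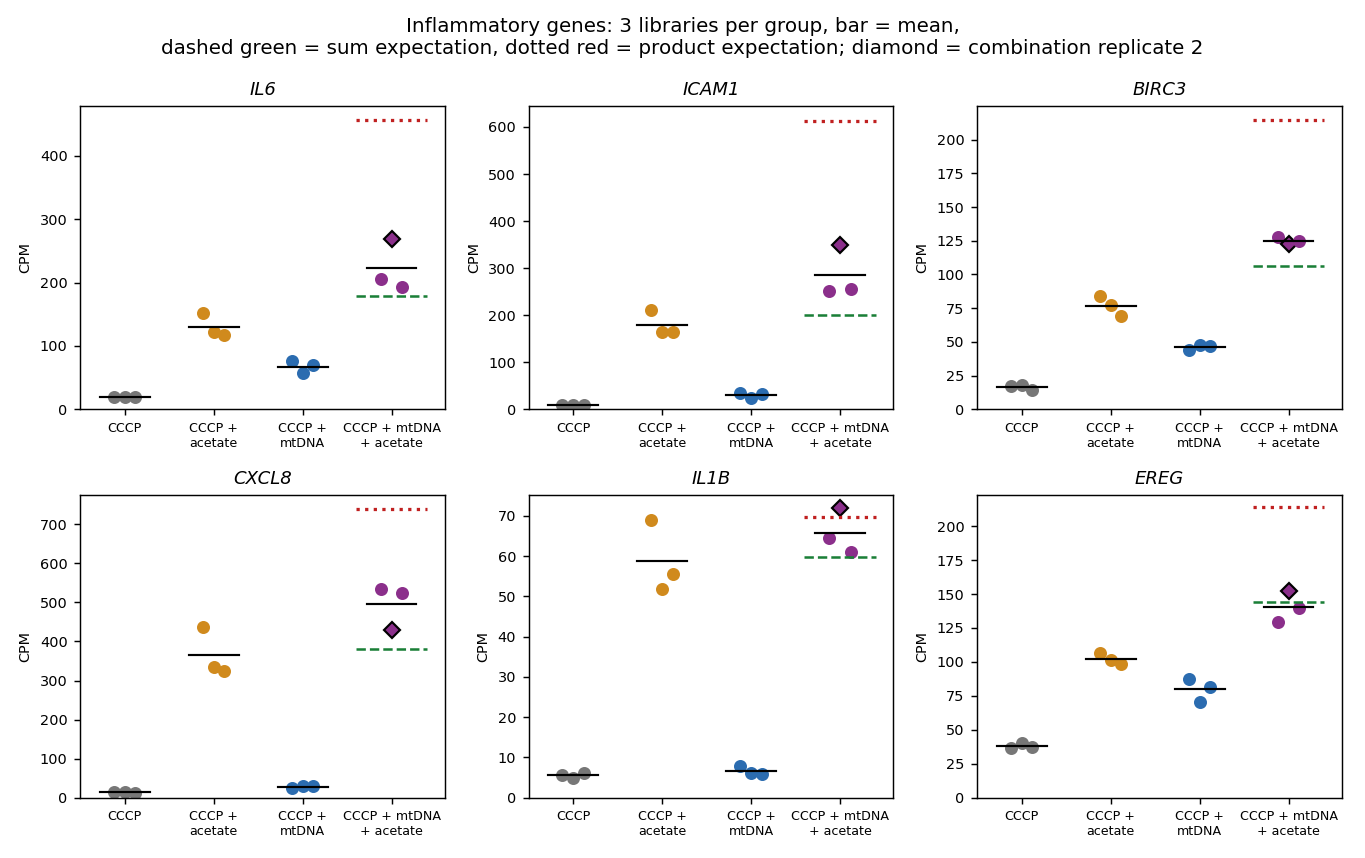
The CPM of 6 inflammatory genes are plotted for the 3 libraries of each group, with bars for group means, dashed green lines for the sum expectation and dotted red lines for the product expectation. The combination libraries of IL6, ICAM1 and BIRC3 lie between the dashed and the dotted line, and the diamond is combination replicate 2.

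CXCL8, IL1B and CCL20 did not pass with 12 libraries. Levels of CXCL8, interleukin 8, were 14.7, 14.6 and 13 CPM with CCCP, 437, 335 and 325 with acetate, 24.8, 30.4 and 30.5 with mtDNA and 534, 429.8 and 524 with the combination. Levels were high in both groups given acetate, the acetate and combination libraries overlapped, and the interaction was -0.57 (SE 0.16, edgeR adjusted p = 0.131), or -0.45 without combination replicate 2. For IL1B, interleukin 1β, the levels were 5.71, 4.92 and 6.14 CPM with CCCP alone, 69, 51.8 and 55.5 with acetate, 7.93, 6.12 and 5.84 with mtDNA and 64.5, 71.9 and 61.1 with the combination. Acetate and combination libraries overlapped again. The interaction of IL1B was -0.09 (SE 0.18, edgeR adjusted p = 0.889), or -0.13 without combination replicate 2, and its sign changed in 3 of the fits with 1 library left out. CCL20, a CC chemokine, reached at most 3.06 CPM and had an interaction of -0.91 (SE 0.67, edgeR adjusted p = 0.598), or -1.0 without that library.

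Of 34 secreted proteases, growth factors and binding proteins, 4 had a lower interaction (MMP1, MMP3, VEGFC and EREG) and 0 a higher one (0.538% of all genes lower), with a median of -0.15. MMP1, interstitial collagenase, measured 593, 615 and 587 CPM with CCCP alone, 827, 948 and 802 with acetate, 768, 752 and 724 with mtDNA and 812, 726 and 792 with the combination. The combination overlapped both mtDNA alone and acetate alone, and the interaction was -0.47 (SE 0.08, edgeR adjusted p = 0.0118). For EREG, the EGF receptor ligand epiregulin, it was -0.61 (SE 0.10, edgeR adjusted p = 0.0118). MMP3, stromelysin 1, was at 40.1, 41.8 and 36.9 CPM in the CCCP libraries, 20.6, 21.4 and 18.6 with acetate, 52.3, 57.7 and 50.3 with mtDNA and 17.1, 10.8 and 15.2 with the combination. MMP3 was highest with mtDNA alone and lowest with the combination, with an interaction of -0.91 (SE 0.16, edgeR adjusted p = 0.013). Leaving out combination replicate 2 gave 10 lower genes of 34 (2.55% of all genes), with -0.4 for MMP1, -0.65 for EREG and -0.72 for MMP3.

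The interferon-stimulated genes gave the result that turned most on combination replicate 2. mtDNA raised 35 of 36 without acetate (11.7% of all genes) and 34 of 36 with it (7.34%), with median log2 changes of 5.24 and 3.81. With all 12 libraries 0 of the 36 were called. Of their interactions 35 were negative, against 8770 of 16342 over all genes. The median of the 36 was -0.99 (-0.97 with the 3 members that had a group at or under 3 counts per library set to that floor). Without combination replicate 2, 27 of 36 were lower (2.55% of all genes) and 0 higher, and the median was -1.86 (-1.80 with floored members). With all 12 libraries the count was 1 in a fit of all 18 libraries, 3 with DESeq2 and 29 with no filter on low counts, which also gave 1 higher. Acetate lowered 26 of the 36 in cells given mtDNA (32.3% of all genes) and 2 in cells without it (30.7%).

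In combination replicates 1 and 3, 35 of the 36 genes lay below every mtDNA library, which was so for 38% of all genes tested. Combination replicate 2 lay above its 2 partners for 36 of 36, against 40.5% of all genes. The median level in combination replicates 1 and 3 was 29.8% of the mtDNA mean, and in combination replicate 2 it was 102%. That library also had the highest share of counts on mtDNA genes, and the part of this in the result was not tested.

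Levels of IFIT2, an inhibitor of viral translation, were 6.57, 7.40 and 7.40 CPM with CCCP, 8.51, 6.28 and 7.59 with acetate, 1544, 978 and 1464 with mtDNA and 132, 769 and 131 with the combination. IFIT2 was low in both groups without mtDNA, and combination replicates 1 and 3 lay far below replicate 2 and all mtDNA libraries. The interaction of IFIT2 was -2.01 (SE 0.82, edgeR adjusted p = 0.303), and -3.36 (SE 0.22, edgeR adjusted p = 1.93e-09) without combination replicate 2. For EIF2AK2, the double-stranded RNA kinase PKR, the levels were 189, 203 and 201 CPM with CCCP alone, 184, 197 and 195 with acetate, 964, 792 and 941 with mtDNA and 536, 871 and 591 with the combination. Combination replicate 2 fell within the range of mtDNA alone, and the interaction went from -0.39 (SE 0.18, edgeR adjusted p = 0.357) to -0.61 (SE 0.08, edgeR adjusted p = 2.44e-05). IFI6, chosen with ISG15 and MX1 after their values were seen, had the smallest adjusted p of the list without combination replicate 2.

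IFI6, an interferon-induced protein of the endoplasmic reticulum, measured 3.03, 2.75 and 3.72 CPM with CCCP alone, 11.8, 9.85 and 11 with acetate, 273, 202 and 235 with mtDNA and 78, 262 and 84 with the combination. Its interaction was -2.55 (SE 0.58, edgeR adjusted p = 0.0613) with 12 libraries and -3.32 (SE 0.16, edgeR adjusted p = 1.33e-11) without combination replicate 2. ISG15, a ubiquitin-like modifier, was at 4.86, 5.10 and 4.68 CPM in the CCCP libraries, 6.05, 5.58 and 6.07 with acetate, 157, 127 and 144 with mtDNA and 49.8, 149.6 and 51.9 with the combination. The interaction of ISG15 was -1.05 (SE 0.50, edgeR adjusted p = 0.393) with 12 libraries and -1.73 (SE 0.12, edgeR adjusted p = 3.2e-09) without. MX1, an antiviral GTPase, gave -1.62 with 12 libraries and -2.87 (SE 0.47, edgeR adjusted p = 0.000403) without that library and was low in the groups without mtDNA. OAS3 was the exception among the 36, with a fitted interaction of 0.97 with 12 libraries and 0.03 without combination replicate 2, and neither passed.

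EIF2AK2 lies on chromosome 2 from 37099210 to 37157522 and CXCL10 lies on chromosome 4 from 76021118 to 76023497, both on the minus strand (GRCh38). Their RefSeq windows (GRCh38.p14, chr2:37156931-37157230 and chr4:76023448-76023747, minus strand) are shown because they hold the core of the interferon-stimulated response element, in capitals, searched on both strands as GAAA, any 2 bases and GAAA. The match begins 6 bases before the start of EIF2AK2 and 221 before that of CXCL10.
EIF2AK2: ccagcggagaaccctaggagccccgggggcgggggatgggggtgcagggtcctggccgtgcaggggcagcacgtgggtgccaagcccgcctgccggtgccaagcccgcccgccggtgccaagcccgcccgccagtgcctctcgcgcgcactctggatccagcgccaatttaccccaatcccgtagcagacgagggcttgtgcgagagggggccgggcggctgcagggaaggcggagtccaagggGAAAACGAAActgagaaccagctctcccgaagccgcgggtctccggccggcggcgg
CXCL10: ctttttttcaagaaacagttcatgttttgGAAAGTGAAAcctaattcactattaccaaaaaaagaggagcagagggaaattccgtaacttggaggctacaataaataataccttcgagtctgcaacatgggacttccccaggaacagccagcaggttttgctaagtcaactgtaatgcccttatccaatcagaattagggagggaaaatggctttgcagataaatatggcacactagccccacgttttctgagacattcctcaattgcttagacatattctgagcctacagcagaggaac
Of the 36 interferon-stimulated genes 29 matched a window, and 22 of these held the core, against 4.38% of all genes with a window and 3.57% of all windows.

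The other lists along the interferon route had 0 calls with 12 libraries and some without combination replicate 2. IFNB1, interferon β, had 0 counts in all 6 libraries without mtDNA, 25, 32 and 28 counts with mtDNA, and 4, 30 and 6 with the combination. Only combination replicate 2 reached the range of mtDNA alone, and no fold against the groups at 0 is given. The receptor genes IFNAR1 (interaction 0.07) and IFNGR1 (-0.01) had no call in either fit. Among 13 sensors and adaptors 0 passed with 12 libraries and 5 were lower without combination replicate 2 (2.55% of all genes), among them DDX58 (RIGI), the RNA sensor RIG-I, at -1.47 (SE 0.11, edgeR adjusted p = 6.49e-09), and IFI16, a DNA-binding sensor, at -0.58 (SE 0.08, edgeR adjusted p = 2.87e-05).

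JAK1, a kinase of interferon receptors, had an interaction of 0.00 with 12 libraries and no call in either fit. Of 10 signal transducers reported here 0 were called with 12 libraries and 5 (STAT2, IRF1, IRF2, IRF7 and USP18) were lower without combination replicate 2 (2.55% of all genes), with medians of -0.32 and -0.50. Of 15 genes of MHC class I presentation 0 were called with 12 libraries and 10 were lower without combination replicate 2 (2.55% of all genes). All 15 had negative values in both fits, with medians of -0.41 and -0.51. Over all 16342 genes 8770 values were negative with 12 libraries and 8113 without combination replicate 2.

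Levels of B2M, the MHC class I light chain, were 522, 483 and 543 CPM with CCCP, 643, 583 and 664 with acetate, 1085, 820.2 and 977 with mtDNA and 787, 1037 and 832 with the combination. The 2 groups given mtDNA overlapped and lay above the others. The interaction of B2M was -0.41 (SE 0.14, edgeR adjusted p = 0.217) with 12 libraries and -0.51 (SE 0.10, edgeR adjusted p = 0.00209) without combination replicate 2, and that of HLA-E was -0.21 (SE 0.11, edgeR adjusted p = 0.422) and -0.32 (SE 0.06, edgeR adjusted p = 0.000946). For CXCL10, a chemokine for T cells, the levels were 1.30, 1.36 and 1.73 CPM with CCCP alone, 16.8, 8.88 and 10.2 with acetate, 193, 86.5 and 152 with mtDNA and 54.3, 241 and 56.2 with the combination. Combination replicates 1 and 3 lay between acetate and mtDNA alone, and replicate 2 above all libraries. The interaction of CXCL10 was -3.33 (SE 0.89, edgeR adjusted p = 0.102) with 12 libraries and -4.36 (SE 0.42, edgeR adjusted p = 2.76e-07) without combination replicate 2. For CXCL11, at or under the floor with CCCP, the fitted value depends on the prior count and is not given. Its levels were 51.6, 27.5 and 45.5 CPM with mtDNA and 7.78, 34.1 and 9.37 with the combination.

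**Figure D4:**
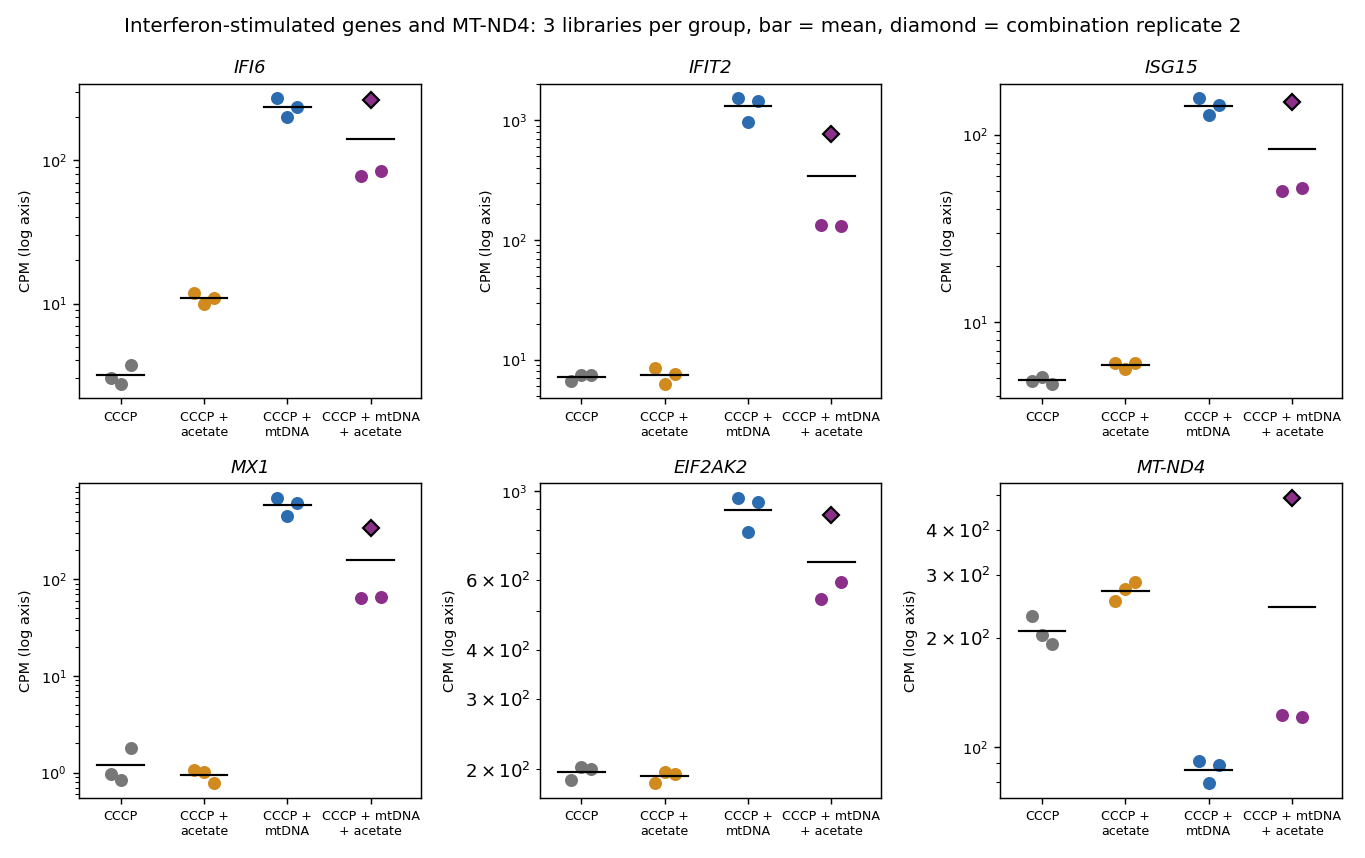
The CPM of 5 interferon-stimulated genes and of MT-ND4 are plotted on log axes for the 3 libraries of each group, with bars for group means and a diamond for combination replicate 2. In each panel the diamond lies above the other 2 combination libraries.

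MT-ND4, a complex I subunit encoded by mtDNA, measured 231, 205 and 193 CPM with CCCP alone, 253, 274 and 287 with acetate, 91.1, 79.1 and 88.9 with mtDNA and 122, 491 and 121 with the combination. Combination replicate 2 was the highest of the 12 libraries, and replicates 1 and 3 lay above mtDNA alone and below CCCP. MT-CO1, a subunit of cytochrome c oxidase, was at 251, 219 and 213 CPM in the CCCP libraries, 236, 258 and 264 with acetate, 106, 94.8 and 112 with mtDNA and 127, 461 and 126 with the combination. All 13 mtDNA-encoded genes were higher in combination replicate 2 than in its partners. Their median interaction was 1.16 with 12 libraries, with 0 calls. It was 0.24 without combination replicate 2, with 1 higher call (MT-CO2, 0.29), against 2.26% of all genes higher. Whether these counts come from RNA or from transfected DNA was not tested.

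Several of the largest negative interactions belonged to genes outside the lists. Levels of GMPR, guanosine monophosphate reductase, were 2.65, 2.35 and 3.18 CPM with CCCP, 6.30, 7.27 and 7.68 with acetate, 39.6, 22.6 and 32.9 with mtDNA and 13.6, 31.1 and 13.2 with the combination. The interaction of GMPR was -2.15 (SE 0.42, edgeR adjusted p = 0.0315), and combination replicate 2 lay in the range of mtDNA alone. For SECTM1, a secreted and transmembrane protein of epithelia and leukocytes, the levels were 4.48, 4.19 and 4.99 CPM with CCCP alone, 5.40, 4.71 and 4.80 with acetate, 17.6, 13.6 and 16.1 with mtDNA and 5.68, 9.21 and 4.98 with the combination. The combination was close to CCCP and acetate in replicates 1 and 3, and the interaction was -1.4 (SE 0.24, edgeR adjusted p = 0.0142). APOBEC3F, a cytidine deaminase that restricts retroviruses, had an interaction of -1.20 (SE 0.24, edgeR adjusted p = 0.0315) and PPM1K, the phosphatase of branched-chain amino acid breakdown, -1.09 (SE 0.24, edgeR adjusted p = 0.0465). In each of these 4 genes combination replicate 2 was the highest of its group, as it was for all 36 interferon-stimulated genes (40.5% of all genes). The 0 calls among those 36 do not cover genes outside the list, and whether these 4 respond to interferon was not tested.

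SLC2A12, a glucose transporter, was at 5.22, 4.78 and 5.17 CPM with acetate and 3.67, 5.90 and 4.25 with the combination, with an interaction of -1.34 (SE 0.25, edgeR adjusted p = 0.0234). KCNT2, a potassium channel, rose to 12.4, 17.6 and 13.9 CPM with the combination, above 10.1, 9.85 and 10.6 with acetate, with an interaction of -1.09. TCIM had an interaction of -1.07. Without combination replicate 2 the values were -2.63 for GMPR, -1.66 for SECTM1, -1.43 for APOBEC3F, -1.41 for PPM1K, -1.52 for SLC2A12, -1.22 for KCNT2 and -1.20 for TCIM. Of these 7, SECTM1 and TCIM passed in 9 of 12 fits with 1 library left out, and the others in 2 to 6.

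Of the 17 genes with a higher interaction, the mtDNA change without acetate passed the test for 14 (20.4% of all genes). All but 1 of the 17 had a lower fitted level with mtDNA alone. COL1A1, the α1 chain of type I collagen, measured 954, 876 and 952 CPM with CCCP alone, 813, 732 and 739 with acetate, 589.7, 542 and 549 with mtDNA and 586, 748 and 614 with the combination. mtDNA alone gave the lowest levels with some overlap with the combination, and the interaction was 0.50 (SE 0.10, edgeR adjusted p = 0.0372). VCAN, the matrix proteoglycan versican, was at 378, 398 and 389 CPM in the CCCP libraries, 422, 408 and 396 with acetate, 334, 331 and 346 with mtDNA and 428, 473 and 464 with the combination. The combination lay above all other libraries and mtDNA alone below all, with an interaction of 0.36 (SE 0.06, edgeR adjusted p = 0.0118). COL1A1 was the 1 called member of 21 tested collagen, matrix and contractile genes (0.104% of all genes higher), whose median was 0.16. Leaving out combination replicate 2 gave 4 higher genes of that list (COL1A1, COL1A2, COL5A1 and FBN1), against 2.26% of all genes, and the list median fell to 0.08. The values without that library were 0.41 for COL1A1 and 0.35 for VCAN.

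Levels of MITF, a transcription factor of lysosomal and pigment cell genes, were 70.8, 76.1 and 78.2 CPM with CCCP, 104, 104 and 102 with acetate, 64.8, 61.1 and 63.3 with mtDNA and 107, 115 and 114 with the combination. Levels with acetate and with the combination were the highest, and the interaction was 0.36 (SE 0.06, edgeR adjusted p = 0.0147). For GPR155, a lysosomal cholesterol sensor, the levels were 24.8, 28.1 and 28.6 CPM with CCCP alone, 57, 54.6 and 57.7 with acetate, 19.4, 19.7 and 19.5 with mtDNA and 55.3, 64.8 and 56.2 with the combination. The acetate and combination libraries overlapped, and the interaction was 0.53 (SE 0.09, edgeR adjusted p = 0.0152). The other genes named here were PWAR5, a noncoding RNA (1.28), ARMCX4 (0.52), the ubiquitin ligase HERC1 (0.52), the focal adhesion gene LPP (0.4), the matrix protease ADAMTS1 (0.37) and the inflammasome sensor NLRP1 (0.35). Without combination replicate 2 the values were 0.37 for MITF, 0.48 for GPR155, 1.46 for PWAR5, 0.56 for ARMCX4, 0.55 for HERC1, 0.46 for LPP, 0.36 for ADAMTS1 and 0.34 for NLRP1. VCAN passed in 12, MITF and GPR155 in 10, and COL1A1 and these 6 in 2 to 4 of the 12 fits with 1 library left out.

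The remaining lists held few calls. Of 26 genes of acetyl-CoA supply and histone acetylation 1 was lower (0.538% of all genes), HDAC9, a class IIa deacetylase. HDAC9 measured 35.8, 36.2 and 37.2 CPM with CCCP alone, 39, 39.4 and 38.4 with acetate, 59.3, 61.8 and 66.1 with mtDNA and 49.8, 49.98 and 55.1 with the combination. mtDNA alone gave the highest levels without overlap, and the interaction was -0.37 (SE 0.07, edgeR adjusted p = 0.0324). CDKN2B, the inhibitor p15 of cyclin-dependent kinases, was the 1 called member of 16 p53 targets and arrest genes (0.538% of all genes lower), at -0.59 (SE 0.07, edgeR adjusted p = 0.000788). AKR1B1, aldose reductase, was the 1 of 11 metallothioneins and NRF2 targets (0.538% of all genes lower), at -0.34 (SE 0.07, edgeR adjusted p = 0.0324). With edgeR, 0 of 22 cholesterol and fatty acid genes (FADS1 0.14, SC5D 0.01), 0 of 15 cell death genes (MCL1 -0.21, TNFRSF10B 0.01) and 0 of 14 proliferation genes (RRM2 0.36, PCNA -0.16) passed with 12 libraries, while over all genes 1181 lower and 959 higher interactions had an unadjusted p under 0.05. The medians of these 3 lists were 0.15, -0.21 and 0.18. Without combination replicate 2, 2 cholesterol genes were higher (2.26% of all genes) and 5 cell death genes lower (2.55%), among them MLKL, the executor of necroptosis, at -0.69. The values were -0.33 for HDAC9, -0.61 for CDKN2B and -0.32 for AKR1B1. Of the 12 fits with 1 library left out, CDKN2B passed in all 12, and HDAC9 and AKR1B1 in 3 each.

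**Figure D5:**
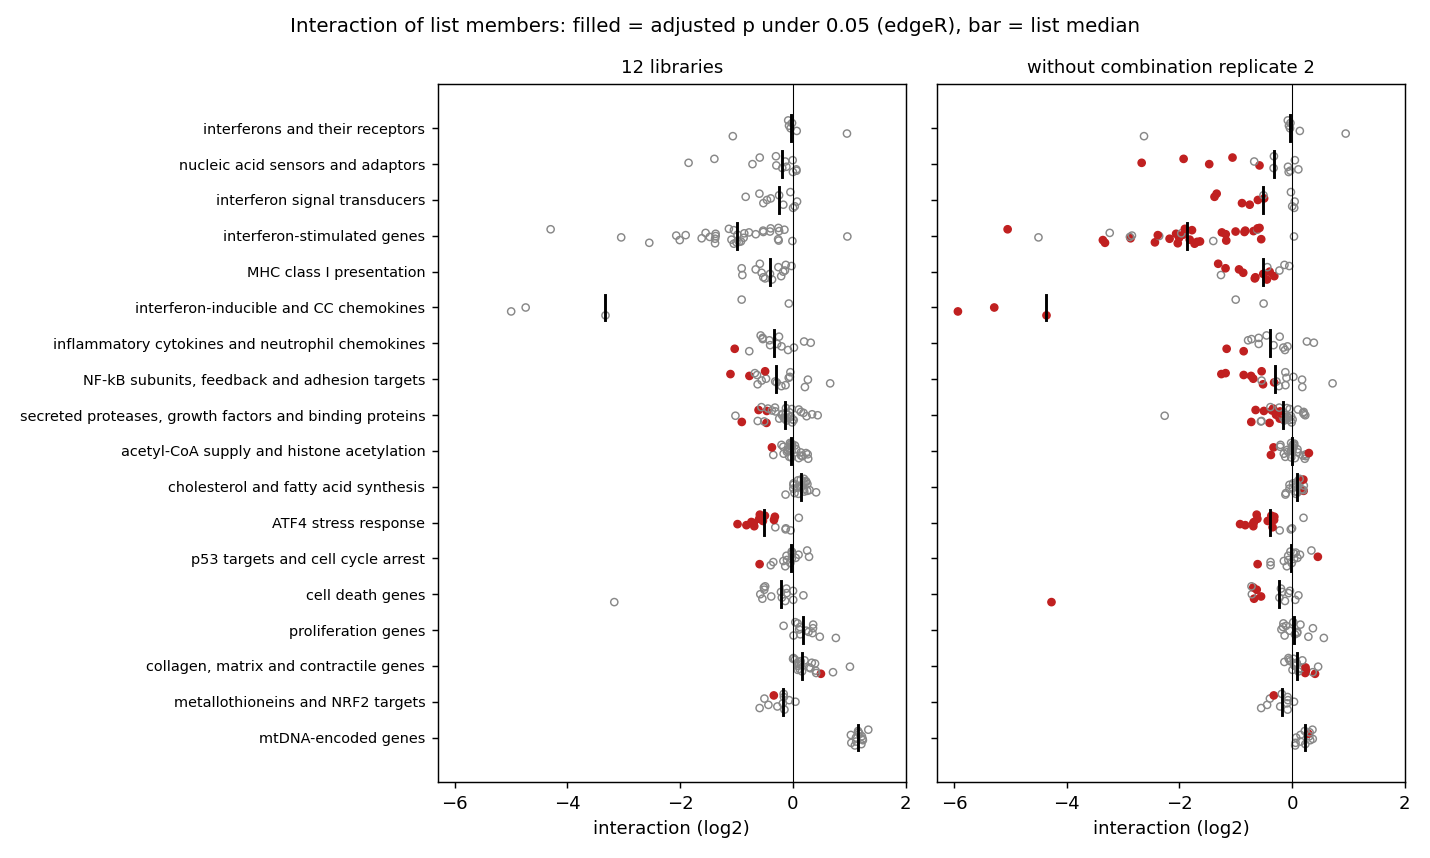
The log2 interaction of each tested member is plotted for the 18 gene lists with 12 libraries (left) and without combination replicate 2 (right), filled red where the adjusted p is under 0.05 (edgeR), with a bar for the list median. The ATF4 list has 11 filled points on the left and 12 on the right, and the interferon-stimulated genes 0 and 27.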

How the data were processed

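The deposited values are raw read counts per gene, produced by the authors with featureCounts (Subread v1.5.2) after trimming in Trimmomatic v0.36 and alignment by STAR v2.5.2b on GRCh38. The authors also deposited TPM, which correct for gene length and library size. No result here rests on the TPM. Strandedness of the counting is not given in the sources used here, so overlapping genes are uncertain, as are genes with near-identical copies (MHC class I, IFIT).

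From the counts of 12 libraries, edgeR 4.0.16 in R 4.3.3 fitted 4 group means (quasi-likelihood test, TMM, filterByExpr by group, common biological coefficient of variation 0.0638), with Benjamini-Hochberg adjustment over all 16342 genes and a threshold of 0.05. CPM use TMM-scaled library sizes. The floor is 3 counts per library, and it covers counting error only. The script was tested on simulated counts. DESeq2 1.42.0, its size factors, other filters, all 18 libraries, a replicate block and leaving out each of the 12 libraries were alternatives.

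Genes named were the 10 largest interactions per direction (called with and without combination replicate 2, and a mean of at least 10 counts in each group), 5 cytokine genes followed by qPCR (IL6, CXCL8, IL1B, CCL20, CXCL10), up to 2 called genes per direction in each of 18 lists, or the 2 with most counts, and mtDNA genes. The result for 1 gene is not reported here. All other genes named were chosen after their values were seen. The members and lists were chosen with earlier results of these data known. Older symbols of the table (DDX58, WARS) were matched by gene ID, and 56410 of 57500 IDs matched GENCODE release 44 names, whose coordinates are printed. The replicate numbers did not pair libraries: the correlation of deviations of same-numbered libraries from their group means was -0.09 to 0.05 over 18 pairs.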

Additional observations from a re-analysis of the deposited data

Results flagged for a closer look

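The 105 genes with a called interaction of acetate and mtDNA (edgeR, 12 libraries) are set apart because the effect of mtDNA differed between cells with and without acetate by a test of the difference itself. The groups of 3 libraries are too small for a test of a single library far from the rest, so combination replicate 2 is described by its values only.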

How the results depend on the processing

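The direction of the interaction was kept by all 105 called genes in the 12 fits with 1 library left out. These genes were selected on the same libraries, so the kept direction tests nothing. The counts of called genes moved. Genes with a higher interaction, 17 with 12 libraries, numbered 165 with DESeq2 and 203 with no filter on low counts. Genes with a lower interaction, 88 with 12 libraries, numbered 190 with DESeq2 and 381 with no filter. DESeq2 and the fit with no filter started from 35293 genes, against 16342 genes with the filter. With 1 library left out, higher genes ranged from 2 to 380 and lower genes from 22 to 453, the upper ends without combination replicate 2. Leaving out that library gave 380 higher and 428 lower genes. Combined with DESeq2, its size factors or 10 counts in every library, in fits added after seeing the data, it gave 376, 334 and 346 higher and 431, 436 and 453 lower genes. In these 3 fits the interferon-stimulated genes called lower numbered 32, 27 and 24. Over all fits with a library left out they ranged from 0 to 32, and the count was 1 with all 18 libraries, 3 with DESeq2 and 29 with no filter. ATF4 list genes called lower ranged from 6 to 13. The called genes ranged from 2202 to 4150 for mtDNA without acetate, from 1347 to 2608 for mtDNA with acetate, from 9030 to 10503 for acetate without mtDNA and from 8942 to 9859 for acetate with mtDNA. The cause of these moves was not tested.

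With the replicate number as a block, 57 genes had a lower and 13 a higher interaction, and 65 of the 105 genes were called. The numbers share only a label: 1 of the 12 libraries correlated best with its own number.

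Reversed values were near 0. IFNGR1 went to 0.0026 with DESeq2 and 0.00022 with its size factors, and JAK1 to -0.000269 with all 18 libraries. Interactions that changed sign with 1 library left out ranged from -0.0447 to 0.0331 for IFNGR1, from -0.172 to 0.0639 for IL1B, from -0.0117 to 0.0392 for JAK1, from -0.0126 to 0.065 for SC5D and from -0.0189 to 0.0569 for TNFRSF10B. For the 27 named genes with a call, 144 of 324 fits with 1 library left out ended it.

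Each group holds only 3 libraries. Depth was at least 24624886 counts, and IFNB1, CXCL11 and CCL20 had groups near the floor. The part of a single library or of depth in the moved calls was not tested.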

Other observations

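Amino acid supply genes outside the ATF4 list, chosen after their values were seen, were also among the 88 genes with a lower interaction. WARS, tryptophanyl-tRNA synthetase, was at 315, 319 and 319 CPM in the CCCP libraries, 613, 588 and 592 with acetate, 689.9, 540.3 and 633 with mtDNA and 738, 883 and 743 with the combination. Combination replicate 2 was the highest library, and the interaction of WARS was -0.57 (SE 0.11, edgeR adjusted p = 0.0214), or -0.63 without it. That library was the highest of its group for 8 of 16 ATF4 list genes and for all 36 interferon-stimulated genes. Which of these responses WARS belongs to was not tested. Synthetases for other amino acids had smaller interactions, -0.33 for YARS, -0.31 for MARS, -0.31 for CARS and -0.30 for GARS. Levels of SLC7A5, a carrier of large neutral amino acids, were 156, 165 and 147 CPM with CCCP, 228, 221 and 220.4 with acetate, 256, 281 and 259 with mtDNA and 264, 267 and 264 with the combination. The combination libraries lay within the range of mtDNA alone, and the interaction was -0.52 (SE 0.06, edgeR adjusted p = 0.00106), or -0.50 without combination replicate 2. The carriers SLC7A1 (-0.41), SLC1A5 (-0.41) and SLC6A9 (-0.76) and the enzymes PSPH (-0.54), CTH (-0.70), GPT2 (-0.39), MTHFD2 (-0.58) and PCK2 (-0.95) were called in the same direction. With 1 library left out, PSPH, MTHFD2, PCK2 and SLC7A5 passed in all 12 fits, YARS and GARS in 11 and SLC1A5 in 10. SLC7A1 and SLC6A9 passed in 7 of the 12 fits, MARS in 5, CTH and WARS in 4, CARS in 3 and GPT2 in 2. Since these genes were picked from the called set, their number tests nothing.

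For NAMPT, the rate-limiting enzyme of NAD salvage, the levels were 241, 249 and 234 CPM with CCCP alone, 432, 452 and 406 with acetate, 555, 505 and 529 with mtDNA and 635, 621 and 603 with the combination. The combination lay above all other libraries and below the product expectation of 944 CPM, with an interaction of -0.61 (SE 0.06, edgeR adjusted p = 0.0002), or -0.58 without combination replicate 2. TRIM25, a ubiquitin ligase of RIG-I signalling, measured 151, 153 and 132 CPM with CCCP alone, 206, 218 and 209 with acetate, 507, 466 and 491 with mtDNA and 390.0, 518 and 410.2 with the combination. TRIM25 was called with 12 libraries, at -0.69 (SE 0.12, edgeR adjusted p = 0.0118), with combination replicate 2 the highest of all libraries, and the value without it was -0.80.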
